A study of Homo sapiens with 4 samples.

Results

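The genes described here encode the enzymes that make cholesterol, the proteins that sense and switch on that pathway, a small group that moves sterols or answers to sterol-derived signals, and the core enzymes of fatty acid synthesis and desaturation. They were chosen by name, and all 34 of the 34 listed symbols were found among the 57879 genes of the files. The list was split by role into 18 sterol synthesis enzymes, 4 regulators of the SREBP system, 4 genes of sterol transport or of the LXR response, and 8 fatty acid genes, and it does not hold every enzyme of the pathway. RNAseq compared T24 cells, which derive from a human bladder carcinoma, that carried either an empty vector (control, 2 libraries) or a FLAG-tagged catalytic domain of TET1 (TET1-CD, 2 libraries). Ten-eleven translocation 1 is a dioxygenase that oxidises 5-methylcytosine to 5-hydroxymethylcytosine, and the comparison asks which transcripts differ once its catalytic part is overexpressed. Per the study's methods, lentiviral particles and puromycin selection were used to obtain stable cells, and all cultures were kept in RPMI with serum, which itself contains cholesterol. The promoter that drives the transgene and the number of clones behind each population were not given in the sources used here. All 4 libraries are labelled as induced, but the labels do not say by what. They do not say either whether the 2 libraries of a group came from separate cultures, so p-values measure only the spread between these samples, which may be technical.

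The expected counts, that is, fragments as estimated per transcript and therefore fractional, summed to between 17442143 and 20295266 per library. Counts of TET1 were 111 and 83 in control against 2939 and 3310 with TET1-CD, 32.5-fold more (adjusted p = 4.9e-10, edgeR), so the libraries matched their labels. Of the urothelial markers, UPK1A, UPK1B, UPK2 and UPK3A had at most 6 counts in any library and KRT20 and KRT5 had 0. PPARG had between 363 and 461 counts and FOXA1 between 366 and 587, and GATA3 had 19 and 19 in control against 46 and 44 in TET1-CD cells. The epithelial keratins KRT7, KRT8 and KRT18 had at least 10759 counts in each library, while KRT19 lay between 66 and 169. Of the markers of other cell types, PECAM1 was at 0, and PTPRC, CD3E, VWF and DCN had at most 6 counts. COL1A1 was the exception, with 88 and 70 counts in control and 266 and 314 in TET1-CD cells (3.70-fold higher, adjusted p = 1.03e-05), and its part in the results below was not tested.

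Cholesterol is built from acetyl-CoA, which is joined into mevalonate, turned into isoprenoid units, coupled to squalene, closed into lanosterol and then trimmed to cholesterol. Transcription of the enzymes is controlled by the sterol regulatory element-binding proteins, of which SREBP-2, encoded by SREBF2, favours the cholesterol genes and SREBP-1, encoded by SREBF1, favours the fatty acid genes. When sterols are scarce, SCAP escorts the SREBPs from the endoplasmic reticulum to the Golgi, where they are cut and released, and when sterols are plentiful INSIG proteins hold SCAP back. Oxysterols that build up in sterol-rich cells activate the LXR receptors, which raise the exporters ABCA1 and ABCG1 and the ubiquitin ligase MYLIP.

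The sterol synthesis genes were mostly higher in TET1-CD cells, by modest amounts. Of the 34 genes, 18 rose (52.9%) and 2 fell (5.88%) at an adjusted p under 0.05 from edgeR's quasi-likelihood test, against 10.0% of the 14573 genes tested that were called higher and 9.61% called lower. Both TET1-CD libraries lay above both control libraries for 24 of the 34 genes, against 30.8% of all genes, and below them for 2, against 30.2%. The median log2 fold change over the 34 genes was 0.26, and that over all genes tested was 0.00095. A fold change of at least 2 together with an adjusted p under 0.05 was met by 1 of the 34 genes, MVD, against 3.77% of all genes. In RNA from a whole culture, fewer cells that make a transcript and less of it per cell cannot be told apart. The number of calls differed with the libraries used, since 9 genes were called higher when TET1-CD replicate 1 was left out and 9 without TET1-CD replicate 2, against 20 and 19 without control replicates 1 and 2. Over all genes, the calls in both directions numbered 832 and 1014 without TET1-CD replicates 1 and 2, against 2865 with all libraries.

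**Figure D1:**
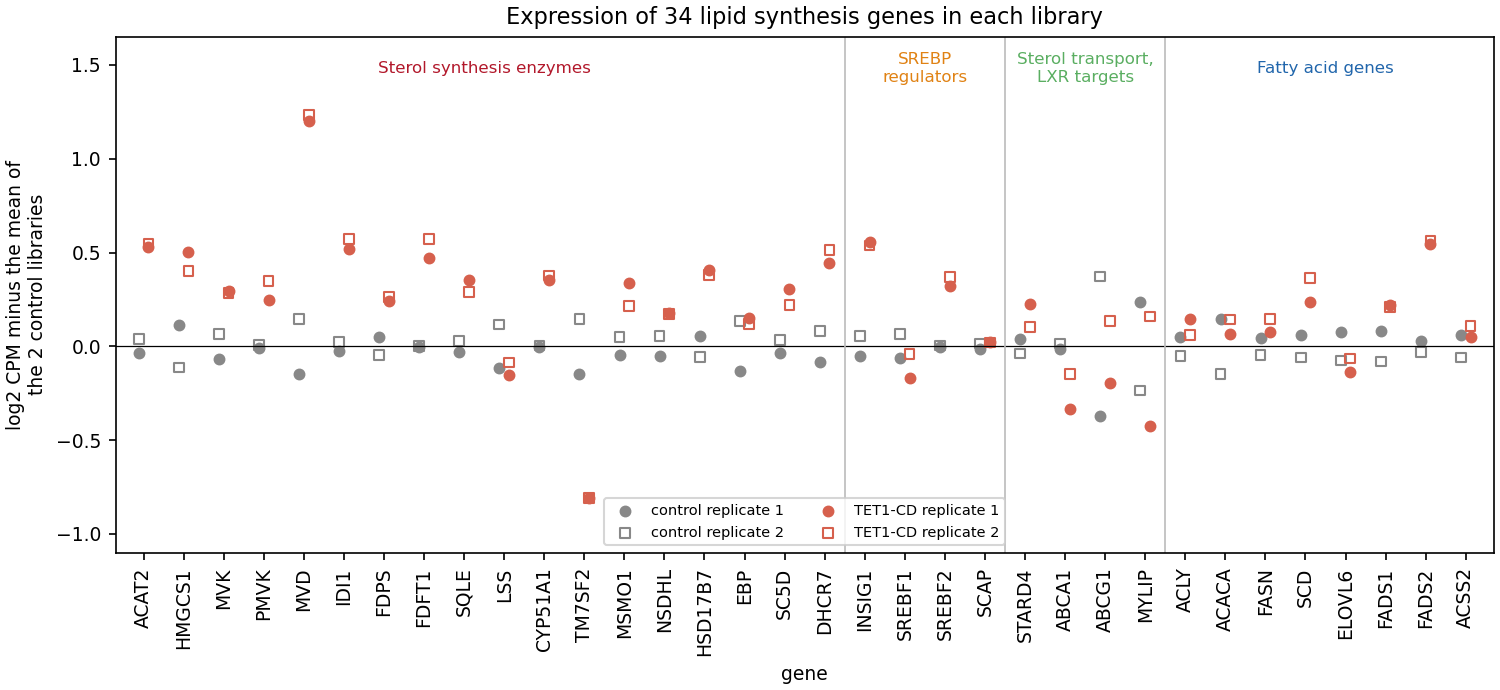
Expression of each of the 34 genes in each library, as log2 CPM (counts scaled to a common library size) minus the mean of the 2 control libraries, with genes on the horizontal axis grouped by role. Grey points are control libraries and red points TET1-CD libraries, with circles for replicate 1 and squares for replicate 2. The red points of MVD stand highest and those of TM7SF2 lowest, and for most sterol synthesis enzymes both red points lie above both grey ones.

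Among the sterol synthesis enzymes, 13 of 18 rose (72.2%), 1 fell and 4 were not called, against 10.0% of all genes called higher and 9.61% lower. Their median log2 fold change was 0.31, with a range from -0.83 to 1.22. Both TET1-CD libraries exceeded both control libraries for 15 of the 18, against 30.8% of all genes. With DESeq2 in place of edgeR, 9 of the 18 were called higher and 0 lower, against 6.09% and 5.85% of all genes. Without TET1-CD replicate 1 the count of calls higher was 6, and without TET1-CD replicate 2 it was 7, while the median log2 fold change stayed between 0.29 and 0.34 whichever library was left out.

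The first steps join acetyl-CoA units. ACAT2, the cytosolic thiolase that makes acetoacetyl-CoA, had 637.6 and 672.3 normalized counts in control cells and 946.1 and 958.2 in TET1-CD cells. Normalized counts are counts scaled to a common library size by the TMM method. The groups did not overlap, and ACAT2 rose by 0.54 in log2 units (standard error, SE, 0.07, adjusted p = 0.000686), or 1.45-fold. ACAT2 shares 2202 bases of its span with SOD2 and 615 with TCP1 on the opposite strand. SOD2 had 34862 and 35083 counts in control and 18247 and 19993 in TET1-CD cells, a log2 fold change of -0.86 (adjusted p = 5.47e-05), and that of TCP1 was 0.26 (adjusted p = 0.00807). Whether counting used the strand is not stated in the sources used here, so fragments in the shared stretches cannot be assigned with certainty. HMGCS1, the synthase that adds the next acetyl group to give HMG-CoA, had 1165 and 994.9 normalized counts in control and 1524 and 1424 in TET1-CD cells. Both control libraries stayed below both TET1-CD libraries, and HMGCS1 rose by 0.45 (SE 0.08, adjusted p = 0.00401, and 0.071 without TET1-CD replicate 1).

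Next, mevalonate is phosphorylated and decarboxylated to isoprenoid units. MVK, mevalonate kinase, had 225.2 and 247.1 normalized counts in control and 289.5 and 287.6 in TET1-CD cells. MVK was not called at a log2 fold change of 0.29 with an SE of 0.11 (adjusted p = 0.0824). Without control replicate 2 its log2 fold change was 0.36. PMVK, the kinase that acts after it, had 350.6 and 353.9 against 418.2 and 449.6 and rose by 0.30 (SE 0.09, adjusted p = 0.0441), a call that was lost with DESeq2 (0.211) and without TET1-CD replicates 1 and 2 (0.157 and 0.334). MVD, the decarboxylase that turns mevalonate diphosphate into isopentenyl diphosphate, had 465.1 and 569.8 normalized counts in control and 1187 and 1212 in TET1-CD cells. It moved most of all 34 genes. Its mean went from 517 ± 74.0 (SD, n = 2) to 1200 ± 18.3 (SD, n = 2), a log2 fold change of 1.22 (SE 0.09, adjusted p = 2.14e-05 from edgeR), or 2.33-fold. On GRCh37, the build of the files, MVD lies on chromosome 16 from 88718343 to 88729569 on the minus strand. IDI1, which isomerises isopentenyl diphosphate, had 1078 and 1114 normalized counts in control and 1570 and 1632 in TET1-CD cells. The spread within each group was small beside that gap, and IDI1 rose by 0.55 (SE 0.06, adjusted p = 0.000249). FDPS, farnesyl diphosphate synthase, had 1704 and 1594 against 1953 and 1976 and rose by 0.25 (SE 0.06, adjusted p = 0.0152, and 0.149 and 0.176 without TET1-CD replicates 1 and 2).

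The enzymes that commit the pathway to sterols followed the same direction up to the ring closure. FDFT1, squalene synthase, had 1091 and 1093 normalized counts in control and 1515 and 1622 in TET1-CD cells, and rose by 0.52 on the log2 scale (SE 0.06, adjusted p = 0.0004). SQLE, squalene epoxidase, had 1549 and 1615 in control and 2020 and 1934 in TET1-CD cells, and rose by 0.32 (SE 0.06, adjusted p = 0.00435, and 0.101 without TET1-CD replicate 1). LSS, which closes the epoxide into lanosterol, stood apart from its neighbours in the pathway. It had 1448 and 1701 normalized counts in control and 1413 and 1478 in TET1-CD cells, so the groups overlapped and the log2 fold change of -0.12 (SE 0.08) was not called (adjusted p = 0.319). Without control replicate 1 the log2 fold change of LSS was -0.24, so whether it was called depended on the control libraries used.

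After lanosterol, methyl groups are removed and double bonds are moved or reduced. CYP51A1, the lanosterol 14-alpha demethylase, had 1904 and 1918 normalized counts in control and 2443 and 2481 in TET1-CD cells, and rose by 0.37 (SE 0.05, adjusted p = 0.00143). TM7SF2, a sterol C14 reductase that acts on the product of CYP51A1, was the sterol synthesis enzyme that fell. It had 88.6 and 109 normalized counts in control and 55.3 and 55.2 in TET1-CD cells, a log2 fold change of -0.83 (SE 0.19, adjusted p = 0.0142), or 1.78-fold lower. TM7SF2 had the fewest counts of the 18 enzymes, and the call was lost with DESeq2 (adjusted p = 0.0781), without TET1-CD replicate 1 (0.105) and without TET1-CD replicate 2 (0.0891). LBR, the lamin B receptor, carries the same reductase activity and is not on the list of 34. It had 2464 and 2260 normalized counts in control and 2019 and 2099 in TET1-CD cells, and fell by 0.20 (adjusted p = 0.0476). The call of LBR was close to the threshold.

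MSMO1, a C4-methylsterol oxidase, had 620.1 and 662.6 normalized counts in control and 808.8 and 743.9 in TET1-CD cells, and rose by 0.28 (SE 0.08, adjusted p = 0.0348). The call of MSMO1 was lost with DESeq2 (adjusted p = 0.128), without control replicate 1 (0.0782) and without TET1-CD replicates 1 and 2 (0.324 and 0.0858). NSDHL, which works beside MSMO1 in the removal of the C4 methyl groups, had 883.1 and 951.8 against 1038 and 1032. Its log2 fold change of 0.18 was not called (adjusted p = 0.0928) and was 0.23 without control replicate 2. HSD17B7, the ketoreductase of the same step, had 171.6 and 158.6 against 219.2 and 215.3 and rose by 0.39 (SE 0.12, adjusted p = 0.0414). HSD17B7 was not called with DESeq2 (adjusted p = 0.251), without control replicate 2 (0.0758) or without TET1-CD replicates 1 and 2 (0.237 and 0.188). Its pseudogene HSD17B7P2 had 22 to 36 counts in each library, and fragments shared between the copies cannot be assigned with certainty. The last enzymes split in the same way between called and not called. EBP, the sterol isomerase, had 842.5 and 1014 normalized counts in control and 1027 and 1006 in TET1-CD cells, and the groups overlapped (log2 fold change 0.13, adjusted p = 0.317). The value of EBP depended on the control library used, with a log2 fold change of -0.01 without control replicate 1 and of 0.27 without control replicate 2. SC5D, the C5 desaturase, had 628.4 and 658.2 against 795 and 750.5 and rose by 0.26 (SE 0.07, adjusted p = 0.0334), but its call was lost with DESeq2 (0.142), without control replicate 1 (0.0658) and without TET1-CD replicates 1 and 2 (0.294 and 0.114). DHCR7, which reduces 7-dehydrocholesterol to cholesterol, had 457.7 and 512.6 against 658.8 and 691.5 and rose by 0.48 (SE 0.09, adjusted p = 0.00428, and 0.0511 without TET1-CD replicate 2).

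**Figure D2:**
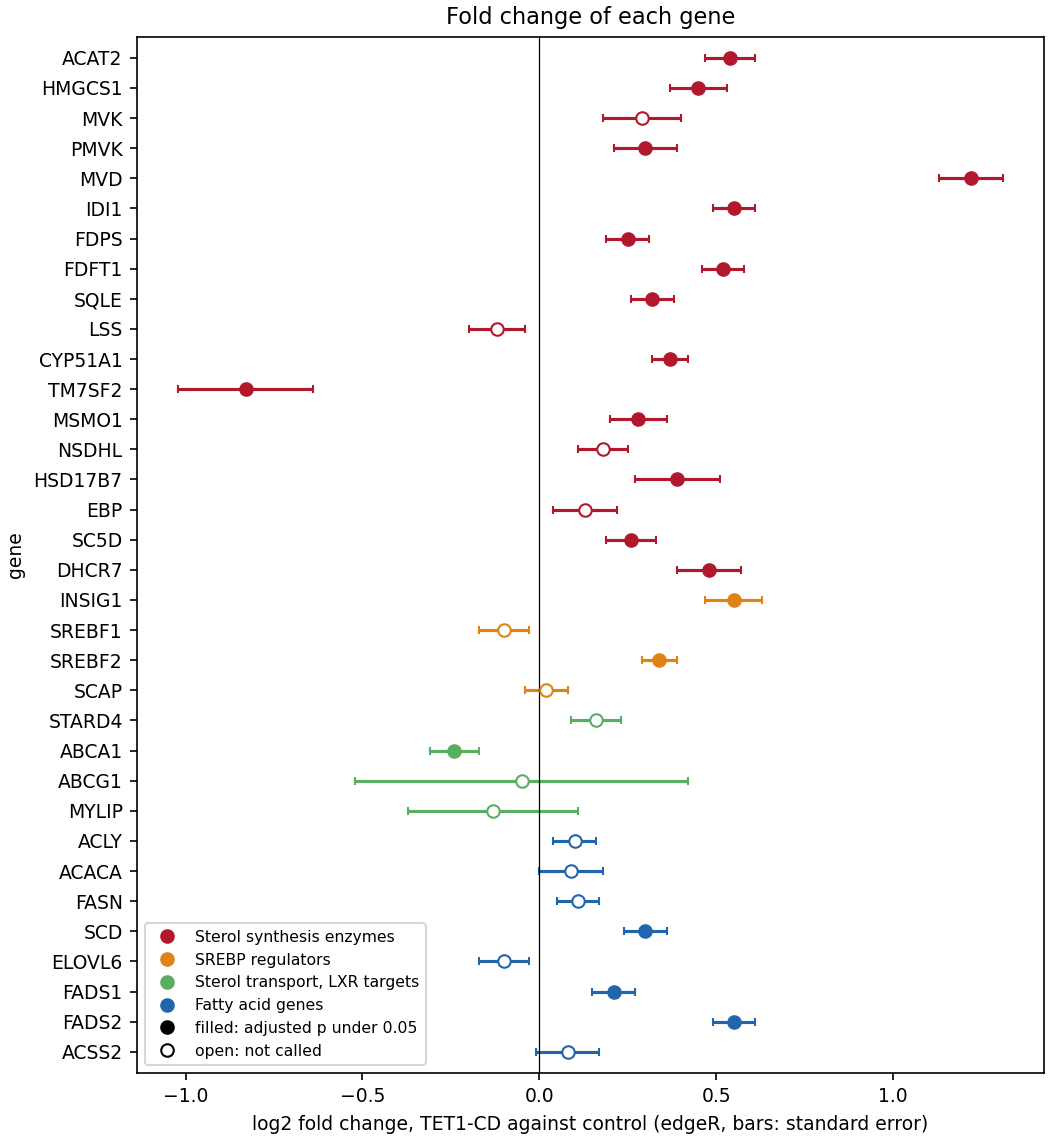
Log2 fold change of each of the 34 genes between TET1-CD and control cells from edgeR, with bars for 1 standard error. Colours mark the role of the gene, filled circles an adjusted p under 0.05 and open circles genes that were not called. MVD at 1.22 and TM7SF2 at -0.83 are the ends of the range, and ABCG1 has the widest bar (SE 0.47).

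The stretches upstream of 6 of the genes are shown because sterol genes are textbook targets of SREBPs acting beside the factor NF-Y, and because these genes are the one with the largest rise (MVD), the sterol synthesis enzyme that fell (TM7SF2) and all 4 regulators of the SREBP system. The sequences are the 200 bases just before the start of transcription in RefSeq on GRCh38.p14, a build other than that of the files, and each is written 5′ to 3′ in the direction of its gene. Capitals mark the NF-Y box CCAAT on either strand (ATTGG when it lies on the other strand) and, in SREBF2, the letters of a sterol response element core. MVD holds 3 NF-Y boxes, TM7SF2, INSIG1 and SREBF2 hold 1 each, and SREBF1 and SCAP hold 0.
MVD, chr16:88663092-88663291, minus strand: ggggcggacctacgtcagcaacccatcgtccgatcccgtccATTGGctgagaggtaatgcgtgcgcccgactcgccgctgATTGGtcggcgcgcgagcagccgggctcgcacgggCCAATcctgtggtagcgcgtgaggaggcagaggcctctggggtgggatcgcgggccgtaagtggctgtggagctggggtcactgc
TM7SF2, chr11:65111672-65111871, plus strand: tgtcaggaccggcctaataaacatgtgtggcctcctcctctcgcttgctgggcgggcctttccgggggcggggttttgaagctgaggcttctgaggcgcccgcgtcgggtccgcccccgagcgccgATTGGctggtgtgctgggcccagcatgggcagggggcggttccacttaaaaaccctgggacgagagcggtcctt
INSIG1, chr7:155297678-155297877, plus strand: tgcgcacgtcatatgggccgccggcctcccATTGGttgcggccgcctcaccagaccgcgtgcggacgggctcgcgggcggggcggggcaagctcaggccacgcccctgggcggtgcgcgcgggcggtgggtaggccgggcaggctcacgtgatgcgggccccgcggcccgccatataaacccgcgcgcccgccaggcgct
SREBF1, chr17:17836987-17837186, minus strand: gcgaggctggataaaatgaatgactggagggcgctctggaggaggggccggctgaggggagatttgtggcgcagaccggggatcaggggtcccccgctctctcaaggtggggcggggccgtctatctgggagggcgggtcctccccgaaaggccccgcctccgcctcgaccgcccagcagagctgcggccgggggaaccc
SREBF2, chr22:41832905-41833104, plus strand: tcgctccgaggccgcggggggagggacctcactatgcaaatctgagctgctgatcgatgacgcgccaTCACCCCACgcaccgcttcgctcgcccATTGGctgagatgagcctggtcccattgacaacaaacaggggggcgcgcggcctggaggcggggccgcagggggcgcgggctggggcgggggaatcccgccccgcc
SCAP, chr3:47475942-47476141, minus strand: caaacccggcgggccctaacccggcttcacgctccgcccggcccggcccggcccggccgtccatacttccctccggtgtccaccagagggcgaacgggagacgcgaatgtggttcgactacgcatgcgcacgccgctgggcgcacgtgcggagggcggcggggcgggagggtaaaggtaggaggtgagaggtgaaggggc

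Promoter windows of 300 bases, from 250 before to 50 after a start, were taken from RefSeq for 29 of the 34 genes, with 39 windows in all. Windows of the 34 genes on chromosome 8 were left out, so FDFT1 and SQLE, which lie there, were not searched. The background of all promoters kept that chromosome. Entries for ACAT2, ABCG1 and FASN were not found. The letters CCAAT were searched on both strands. They occurred in at least 1 window of 13 of the 15 matched sterol synthesis enzymes (86.7%), with PMVK and CYP51A1 as the others, in 5 of 7 fatty acid genes (71.4%), and in 22 of 29 genes overall (75.9%), against 39.7% of 27305 genes with a promoter entry. Counted by window, the shares were 66.7% of 39 and 34.6% of 35116. The background here and below held all promoter entries, was not limited to genes tested for expression, and was not compared with such a subset. Genes of every outcome held boxes, since MVD, which rose, held 3, TM7SF2, which fell, held 1, LSS, which was not called, held 1, and MVK and NSDHL, which were not called either, held 5 each. The core TCACNCCAC of the sterol response element, which was searched on both strands, was found in 1 of the 29 genes. This was SREBF2, where TCACCCCAC begins 133 bases before the start, against 1.39% of all genes. Known elements that differ from these letters by a base would not be found by this search. The SP1 box GGGCGG was present in 89.7% of the windows (45% of all windows) and the E-box CACGTG in 15.4% (7.26% of all). The windows of the 29 genes held a median of 28 CpG sites (range 4 to 53) at a median of 68.0% GC, against 14 CpG sites and 58.7% GC over all windows. A box is only a match of letters, and binding or methylation was not measured in these files.

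Of the 4 genes of the SREBP system, 2 rose and 2 were not called, against 10.0% of all genes called higher and 9.61% lower. Their median log2 fold change was 0.18. INSIG1, which retains SCAP in the endoplasmic reticulum and is itself an SREBP target, had 393.1 and 424.1 normalized counts in control and 600.2 and 593.4 in TET1-CD cells. It rose by 0.55 (SE 0.08, adjusted p = 0.00196), or 1.46-fold. SREBF2 had 2509 and 2524 normalized counts in control and 3139 and 3252 in TET1-CD cells. The control libraries were nearly equal, and SREBF2 rose by 0.34 (SE 0.05, adjusted p = 0.00196, and 0.0616 without TET1-CD replicate 2). SREBF1 had 1481 and 1620 against 1377 and 1507, so that the groups overlapped, and its log2 fold change was -0.10 (SE 0.07, adjusted p = 0.343). SCAP had 1013 and 1035 in control and 1039 and 1038 in TET1-CD cells, a log2 fold change of 0.02 (SE 0.06, adjusted p = 0.851), which was 0.00 without control replicate 1. Most SREBF1 counts, between 89.2% and 91.3% in every library, were assigned to the transcript ENST00000261646.

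The other genes of SREBP processing, none of them among the 34, did not move with INSIG1. Of 7 such genes, 0 were called higher and 1 lower by edgeR, against 10.0% and 9.61% of all genes. At an unadjusted p under 0.05, 0 were higher and 2 lower (16.8% and 16.4% of all genes). DESeq2 called 0 higher and 1 lower. The gene called was INSIG2, the second INSIG of mammals, which moved opposite to INSIG1. INSIG2 had 836 and 936.6 normalized counts in control and 509.8 and 535.3 in TET1-CD cells, and fell by 0.76 (SE 0.08, adjusted p = 0.000242), or 1.69-fold. Among the genes that were not called were the proteases MBTPS1 and MBTPS2, which cut the SREBPs in the Golgi, and ERLIN1 and ERLIN2, which act in the degradation of membrane proteins of the endoplasmic reticulum, and the median of the 7 log2 fold changes was -0.02.

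Of the 4 genes of sterol transport and the LXR response, 0 rose and 1 fell by edgeR, against 10.0% and 9.61% of all genes. At an unadjusted p under 0.05, 1 was higher (STARD4) and 1 lower, against 16.8% and 16.4% of all genes. DESeq2 called 0 in either direction. ABCA1, the pump that loads cholesterol onto apolipoprotein A-I, had 1352 and 1380 normalized counts in control and 1082 and 1234 in TET1-CD cells, and fell by 0.24 (SE 0.07, adjusted p = 0.0441). That call was close to the threshold and was lost with library size alone as the scaling (adjusted p = 0.0517), with DESeq2 (0.114), without TET1-CD replicate 1 (0.453) and without TET1-CD replicate 2 (0.071). STARD4, a carrier of sterol between membranes whose gene is an SREBP target, had 1209 and 1146 against 1377 and 1266. Its log2 fold change was 0.16 (adjusted p = 0.111) and 0.20 without control replicate 1. ABCG1, the second exporter, was near the limit of detection with 10.2 and 18.3 normalized counts in control and 11.7 and 15.2 in TET1-CD cells, so a difference was not detectable at this depth. MYLIP, the ligase that marks lipoprotein receptors for degradation, had 90.4 and 64.7 against 56.4 and 85.7, and the groups overlapped (log2 fold change -0.13, SE 0.24, adjusted p = 0.764).

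Of the 8 fatty acid genes, 3 rose (37.5%), 0 fell and 5 were not called, against 10.0% of all genes called higher and 9.61% lower. Their median log2 fold change was 0.11. With DESeq2, 2 of the 8 were called higher and 0 lower, against 6.09% and 5.85% of all genes. The 3 genes that rose, SCD, FADS1 and FADS2, all encode desaturases, which insert double bonds. FADS2, the delta-6 desaturase, had 886.8 and 850.3 normalized counts in control and 1269 and 1281 in TET1-CD cells, and rose by 0.55 (SE 0.06, adjusted p = 0.000261), or 1.47-fold. SCD, the delta-9 desaturase that makes oleate, had 5734 and 5282 against 6482 and 7095 and rose by 0.30 (SE 0.06, adjusted p = 0.00963, and 0.0531 and 0.184 without TET1-CD replicates 1 and 2). FADS1, the delta-5 desaturase, had 3212 and 2873 against 3533 and 3513 and rose by 0.21 (SE 0.06, adjusted p = 0.0409), a call that was lost with DESeq2 (0.0568), without control replicate 2 (0.051) and without TET1-CD replicates 1 and 2 (0.285 and 0.247). FADS1 and FADS2 share 29692 bases on opposite strands of chromosome 11, and FADS2 shares 4265 bases with FEN1 on its own strand, whose log2 fold change was 0.28 (adjusted p = 0.00915), so these counts may not be fully separate.

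With all libraries, the enzymes that supply and build the acyl chain were not called, and for some of them this depended on the control libraries used. ACLY, which cleaves citrate to acetyl-CoA, had 6718 and 6250 normalized counts in control and 7165 and 6761 in TET1-CD cells (log2 fold change 0.10, adjusted p = 0.253). ACACA, the carboxylase that makes malonyl-CoA, had 1621 and 1324 against 1531 and 1618 (0.09, adjusted p = 0.5). FASN, the synthase of the chain, had 3387 and 3179 against 3460 and 3626 (0.11, adjusted p = 0.215). For ACLY and FASN both TET1-CD libraries were above both control libraries, and for ACACA the groups overlapped. Without control replicate 1 the log2 fold changes of ACLY, ACACA and FASN were 0.15, 0.24 and 0.15. Without control replicate 2 they were 0.05, -0.04 and 0.06. ELOVL6, which elongates palmitate, had 1215 and 1094 against 1048 and 1102 (log2 fold change -0.10, adjusted p = 0.335, and log2 fold change -0.18 without control replicate 2). ACSS2, which makes acetyl-CoA from acetate, had 499.2 and 459.7 against 495.9 and 517.2 (0.08, adjusted p = 0.576).

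Side by side, the median log2 fold change was 0.31 for the 18 sterol synthesis enzymes and 0.11 for the 8 fatty acid genes, a difference of 0.21. By library, the median of log2 CPM minus the control mean over the sterol synthesis enzymes was -0.036 and 0.036 in the control and 0.343 and 0.32 in the TET1-CD libraries. For the fatty acid genes it was 0.059 and -0.059 in control and 0.111 and 0.144 in TET1-CD cells, and over all genes tested it stayed between -0.001 and 0.003. The sterol medians of the TET1-CD libraries thus stood well apart from the control libraries, and the fatty acid medians stood closer to them. The size of the difference depended on the controls, because it was 0.09 without control replicate 1 and 0.28 without control replicate 2. It is a description of the lists with no test, since the genes are not independent replicates, and the ranges of the single genes overlapped (-0.83 to 1.22 and -0.10 to 0.55).

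Levels between genes were compared per length, as the authors' FPKM (fragments per kilobase of transcript, scaled to the library) summed over the transcripts of a gene. In control cells, ACLY stood highest at 81.5 ± 5.23 FPKM (SD, n = 2), followed by FDPS at 73.5 ± 3.87, EBP at 58.4 ± 7.95, SCD at 54.7 ± 3.37 and FADS1 at 38.0 ± 3.21. Of the 33 neighbouring pairs in this order, 16 had overlapping control libraries, EBP and SCD among them. Apart from FDPS, EBP and TM7SF2, the sterol synthesis enzymes lay between MVK at 6.58 ± 0.247 and CYP51A1 at 33.8 ± 0.0707. At the low end were TM7SF2 at 3.56 ± 0.799, MYLIP at 1.80 ± 0.396 and ABCG1 at 0.25 ± 0.099. MVD went from 16.0 ± 1.99 FPKM and rank 20 of 34 in control to 37.1 ± 0.205 and rank 9 in TET1-CD cells. That move took MVD past HMGCS1, at 18.8 in control and 27.9 in TET1-CD cells, and past SREBF2, at 26.9 and 35.5.

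**Figure D3:**
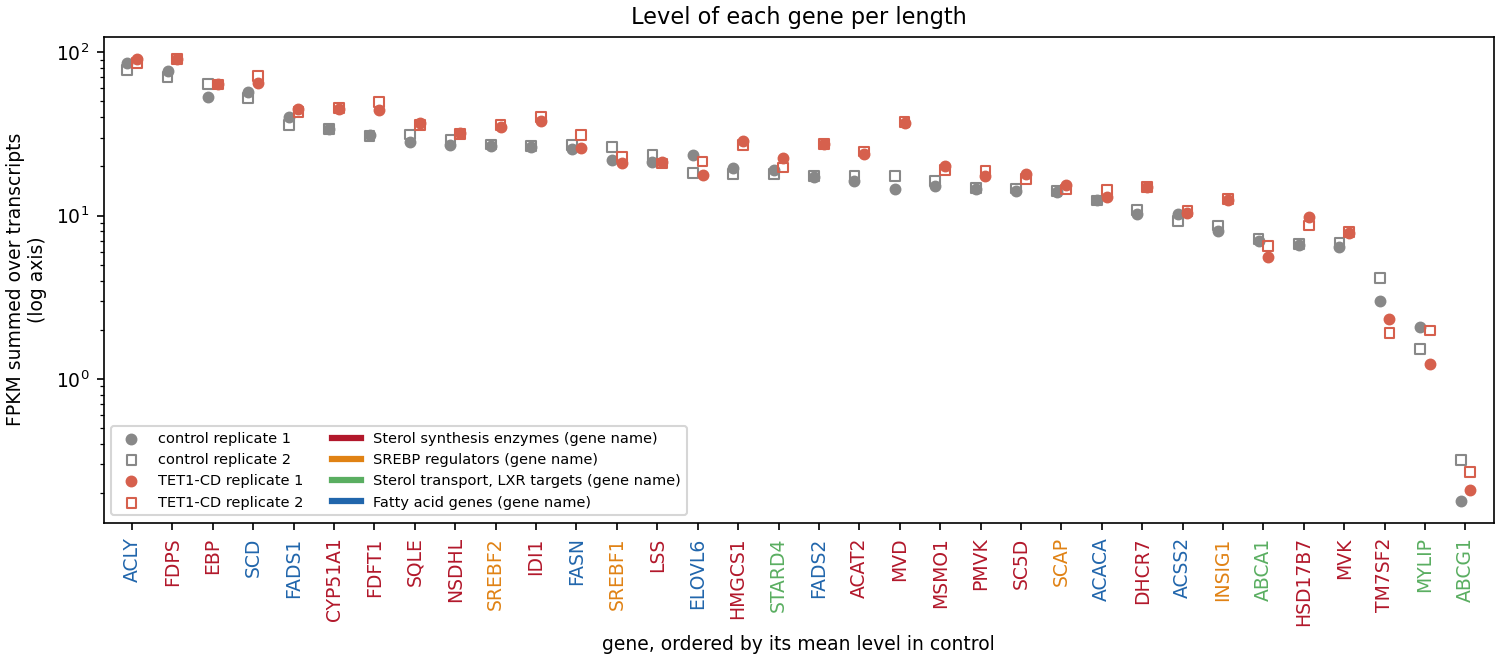
FPKM of each of the 34 genes summed over its transcripts, on a log axis, with genes ordered by their mean level in control. Grey points are control and red points TET1-CD libraries, with circles for replicate 1 and squares for replicate 2, and the colour of a name gives its role. The levels run from ACLY at 81.5 to ABCG1 at 0.25 in control, and the red points of MVD reach the level of genes that stand further to the left.

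The files split each gene into transcripts, which shows whether a change ran through the whole gene. A single transcript took 90% or more of the counts in every library for 7 of the 34 genes and under 50% in some library for 7, and the same transcript led in every library for 32, with ABCG1 and NSDHL as the others. In MVD, ENST00000301012 took between 89.1% and 90.9% in every library. It had 422.5 and 518.1 normalized counts in control and 1057.1 and 1102.3 in TET1-CD cells (log2 fold change 1.20, adjusted p = 0.0118). The other transcripts of MVD together rose too, from 42.5 and 51.7 to 129.6 and 110.1, so the rise was not confined to the leading transcript. TM7SF2 differed from that. Its leading transcript ENST00000279263 had 38.7 and 34.6 normalized counts in control and 39.0 and 32.6 in TET1-CD cells (log2 fold change -0.03, SE 0.30, adjusted p = 0.966). The other transcripts of TM7SF2 together had 49.9 and 74.2 in control and 16.3 and 22.8 in TET1-CD cells, so the estimated counts placed the fall of the gene in them. With so few counts, a fall confined to the other transcripts cannot be told from fragments assigned differently between transcripts. When every gene was tested by its leading transcript alone, a setting chosen after the data were seen, 4 of the 34 genes were called higher and 0 lower, and 517 of 14158 genes were called in all. The 4 genes were MVD, IDI1, FDFT1 and SREBF2, and the median log2 fold change of the sterol synthesis enzymes was 0.38. How the estimate shared fragments between transcripts is not given in the sources used here.

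**Figure D4:**
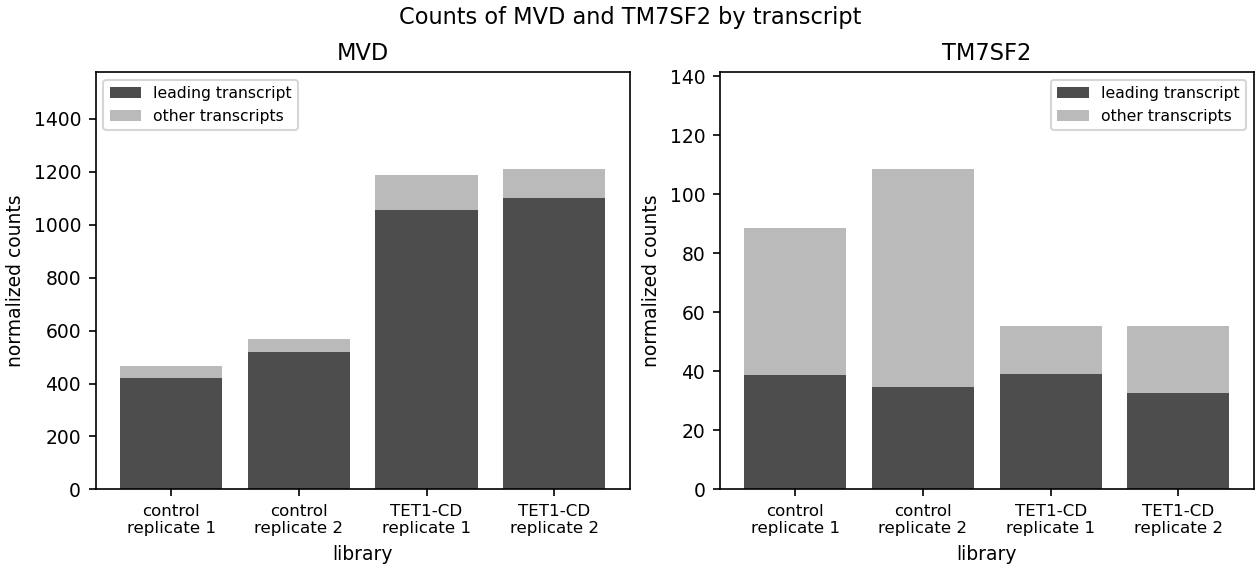
Normalized counts of MVD (left) and TM7SF2 (right) in each library, as bars stacked from the leading transcript (dark) and all other transcripts of the gene (light). In MVD the dark part grows from 422.5 and 518.1 to 1057.1 and 1102.3, and the light part from 42.5 and 51.7 to 129.6 and 110.1. In TM7SF2 the dark part stays between 32.6 and 39.0 while the light part falls from 49.9 and 74.2 to 16.3 and 22.8.

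Genes of neighbouring lipid pathways were examined for comparison, and of 68 such genes 63 could be tested. Of these, 5 were called higher and 9 lower, with a median log2 fold change of 0.00. These shares were 7.94% and 14.3%, against 10.0% and 9.61% of all genes tested. The branch that leaves the mevalonate pathway at farnesyl diphosphate to make ubiquinone, dolichol and prenylated proteins had 11 genes, of which 0 were called by edgeR and 0 by DESeq2. At an unadjusted p under 0.05 there were 3, namely PDSS1 (log2 fold change 0.25), GGPS1 (-0.25) and FNTA (-0.15), against 33.2% of all genes, and the median was -0.06. GGPS1 makes geranylgeranyl diphosphate, PDSS1 is a subunit of the enzyme that builds the ubiquinone side chain, and FNTA is a subunit shared by some of the protein prenyltransferases. A difference between this branch and the sterol synthesis enzymes was not tested.

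Of the genes of sterol storage, intracellular transport and oxysterols, 11 of 14 could be tested. Among these, 2 rose and 2 fell (18.2% each), against 10.0% of all genes called higher and 9.61% lower. DESeq2 called 2 higher and 1 lower, against 6.09% and 5.85% of all genes. The pair that exports cholesterol from lysosomes was divided. NPC2, the soluble carrier, had 1650 and 1787 normalized counts in control and 1199 and 1195 in TET1-CD cells, and fell by 0.52 (SE 0.06, adjusted p = 0.000462). NPC1, the membrane protein that receives sterol from it, had 1439 and 1301 against 1597 and 1696 and rose by 0.26 (SE 0.07, adjusted p = 0.0228). TMEM97, the sigma-2 receptor, which binds NPC1, had 1028 and 905.4 against 1333 and 1293 and rose by 0.44 (SE 0.07, adjusted p = 0.00256). LBR was the other gene that fell. The LXR receptors NR1H2 and NR1H3 were not called, and CH25H, CYP27A1 and CYP7B1, which make oxysterols, had at most 10 counts in any library and were not tested.

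In the list of fatty acid supply, elongation and activation, 2 of 19 tested genes rose (10.5%) and 4 fell (21.1%). These shares stand against 10.0% of all genes called higher and 9.61% lower. DESeq2 called 2 higher and 3 lower, against 6.09% and 5.85% of all genes. FADS3, which lies beside FADS1 and FADS2 and encodes a desaturase of the same family, had 1248 and 1304 normalized counts in control and 650.2 and 689.6 in TET1-CD cells. It fell by 0.93 (SE 0.07, adjusted p = 1.57e-05), while FADS1 and FADS2 rose. Elongases were called in both directions. ELOVL5, which elongates polyunsaturated chains, rose by 0.41 (SE 0.06, adjusted p = 0.00126), and ELOVL7 fell by 0.43 (SE 0.08, adjusted p = 0.00415). SCD5, the second delta-9 desaturase, fell by 0.38 (adjusted p = 0.0141), opposite to SCD. The remaining calls were small, with HSD17B12 at -0.21 (adjusted p = 0.0215) and the acyl-CoA synthetase ACSL3 at 0.20 (adjusted p = 0.0236). Of the 15 genes of fatty acid oxidation, 1 rose (6.67%) and 2 fell (13.3%), against 10.0% and 9.61% of all genes, and the median log2 fold change was 0.08. For this list DESeq2 called 1 higher and 1 lower. ACAA2, the last thiolase of the mitochondrial cycle, rose by 0.41 (SE 0.09, adjusted p = 0.0141), while the dehydrogenases ACADVL for very long chains and ACADS for short chains fell by 0.25 (adjusted p = 0.0138) and 0.53 (adjusted p = 0.0268).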

How the data were processed

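RNAseq of T24 cells was analysed, with 2 control and 2 TET1-CD libraries as named in the labels. For each transcript, the authors deposited expected counts and FPKM values, with GRCh37 coordinates. The submitters' processing notes name cutadapt 1.9.1, HISAT2 2.0.1, HTSeq 0.6.1, DESeq2 and hg19, but the tool that made the expected counts is not given in the sources used here. How multi-mapping fragments and strand were treated is not given either, which bears on overlapping genes and copies. Of the genes described, 12 had a span that met that of another gene with 10 counts or more. Among them was SCD, which shares 1980 bases with AL139819.1 on the same strand. Other experiments of the study were not analysed here.

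Expected counts were summed over the transcripts of a gene and rounded. Genes kept by filterByExpr (14573) were compared with edgeR 4.0.16 in R 4.3.3 (TMM, glmQLFit and glmQLFTest, no block), with Benjamini-Hochberg adjustment over all of them. A gene was called at an adjusted p under 0.05. Standard errors (SE) are the log2 fold change over the square root of F. The fit was checked on simulated data. Levels between genes used the authors' FPKM. The control libraries differed by a chi-square of 6.41 per gene and the TET1-CD libraries by 2.752, so neither pair looked like 1 library deposited again.

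The genes, lists and comparisons were chosen with earlier results of these data known. All 34 genes are named, and of each neighbouring list the called genes with the smallest p, up to 3, or all where a count was 5 or fewer. Alternatives were DESeq2 1.42.0, limma-voom (limma 3.58.1), RLE factors, scaling by library size alone, a minimum of 10 counts in each library, the fit without a filter, a replicate block, an added fold change of 2, an unadjusted p, the ratio of mean FPKM and the omission of each library. Depth was 17442143 to 20295266 counts per library, and 2 libraries per group limit what can be called.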

Additional observations from a re-analysis of the deposited data

How the results depend on the processing

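With 2 libraries per group, the spread of a gene is borrowed from all genes, and small changes near the threshold depend on single libraries. When a library was left out, a lone sample was assumed to vary like the other group. Compared with all libraries, more genes were called over all genes without either control replicate, and fewer without either TET1-CD replicate. The leading transcript setting and the separate count of sterol synthesis enzymes were chosen after the data were seen. With each library left out in turn, the count called higher (18 of 34) went from 9 to 20, that called lower (2) from 0 to 3, that of sterol synthesis enzymes called higher (13) from 6 to 15, and that of the neighbouring lists (14) from 5 to 18. The sterol median (0.31) went from 0.29 to 0.34, the fatty acid median (0.11) from 0.06 to 0.20, and their difference (0.21) from 0.09 to 0.28. The called lower count was 0 with DESeq2 and 1 with library size only. With the leading transcript, the 4 counts were 4, 0, 3 and 5, and the sterol median was 0.38. With a fold change of at least 2 as well, they were 1, 0, 1 and 0. Over all genes, DESeq2 called 1739 against 2865 by edgeR. RLE factors, no filter on low counts, 10 counts in every library and limma-voom left the 18 calls higher at 18, and DESeq2 gave 13.

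Whether same-numbered libraries belong together is not stated in the labels. The correlation of their deviations was 0.00713 over all genes tested and 0.0504 above the median CPM. It is taken across genes, with a single difference per group, so it cannot settle whether they are paired. With a replicate block, 18 genes were called higher, the difference of medians was 0.20 and 3235 genes were called in all.

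Some genes that were not called changed sign. These were NSDHL (-0.09) and ACLY (-0.07) by leading transcript and ABCG1 by limma-voom (0.00). MYLIP was at 0.01 by leading transcript. With each library left out in turn, the log2 fold change went from -0.01 to 0.27 for EBP, from 0.00 to 0.03 for SCAP, from -0.44 to 0.41 for ABCG1, from -0.47 to 0.14 for MYLIP and from -0.04 to 0.24 for ACACA. None of the 20 called genes changed sign in 260 comparisons with another fit or filter, with the leading transcript, with a library left out, or with the FPKM ratio. The call was lost in 50 of the 240 that carry a test, and the cause was not tested. MVD, IDI1 and FDFT1 kept theirs in all of these, but with a fold change of at least 2 as well, MVD alone was called. MVK, NSDHL, EBP, STARD4, ACLY, ACACA and FASN, which were not called with all libraries, were called higher when a control replicate was left out. LSS and ELOVL6 were called lower in such a fit.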
